A study of Mus musculus with 6 samples.

Results

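The integrin, cadherin, claudin and cell junction genes were compared between *Prdm14*-null and wild-type mouse ES cells, both of C57BL/6 background and both grown in 2i, the culture medium with inhibitors of MEK and glycogen synthase kinase-3. Members were the genes whose platform symbol begins with Itga, Itgb, Cdh and a digit, Pcdh, Cldn, Gja, Gjb, Gjc, Tjp, Dsg, Dsc or Dsp, without *Cdh1*, *Cdh2*, *Cldn6* and the Chd genes. This rule gave 34 of the 9046 genes with a symbol of their own, each read by the brightest of its probes. RNA of 3 *Prdm14*-null and 3 wild-type samples had been hybridized to Illumina Mouse WG-6 BeadChips. The samples of a genotype are labelled as consecutive passages, and no label names separate lines, so that every p reflects only how far these samples differ among themselves, which may be technical. The null cells lack a functional *Prdm14*, the gene of a PR domain protein of pluripotent and germ cells, and the controls are wild-type for it. In such bulk samples, fewer cells of a type and less RNA per cell cannot be told apart.

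Cadherins bind to cadherins of the neighbouring cell and are tied to the actin skeleton through catenins. Integrins are heterodimers of an α and a β subunit that hold the cell to the extracellular matrix. Claudins seal the tight junctions of epithelia, connexins form the channels of gap junctions, and desmosomal cadherins anchor the intermediate filaments. In mouse ES cells, colony shape rests mainly on E-cadherin, a gene outside this set, and the fibronectin on which 2i cultures are plated is itself a ligand of integrins.

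Of the 45281 probes on each array, between 13456 and 14901 were above background, that is, had a detection p under 0.01 against the negative control beads. Gene symbols were at hand only for probes above background on at least 1 array, so each member passed that filter, and a member that did so only in the genotype where it is bright is bound to look different. Of the 34 members, 20 were above background on the 6 arrays, 10 on 3 to 5 arrays and 4 on 1 or 2. The target gene *Prdm14* was above background on the 3 wild-type arrays and on no null array, and was at least 6.62-fold lower in the null cells (limma, adjusted p = 2.02e-05), although its probes could not be placed relative to the deletion. All 5 ES cell markers examined, *Pou5f1*, *Sox2*, *Nanog*, *Zfp42* and *Esrrb*, were above background on the 6 arrays, and *Pou5f1* (0.60, adjusted p = 0.00788) and *Sox2* (0.54, adjusted p = 0.00726) passed as higher in null cells, as log2 fold changes in limma. The paper, in contrast, reports *Oct4* (*Pou5f1*), *Sox2* and *Nanog* as unaffected by the loss of *Prdm14*. Both calls lay close to the threshold, and whether they hold in other settings was not examined. Only 2 of 7 primitive endoderm, 3 of 6 trophectoderm and 1 of 7 fibroblast markers had a named probe. Their summed raw signals, before normalization, overlapped between the genotypes. For primitive endoderm they were 216 to 513 in null and 157 to 300 in wild-type cells. For trophectoderm they were 752 to 839 and 466 to 1039, and for the fibroblast marker *Vim* 969 to 1408 and 995 to 1856. Median raw signals ran from 56.8 (wild-type replicate 1) to 80.6 (wild-type replicate 3), so these ranges also reflect array brightness. Single markers moved in different directions. The trophectoderm gene *Tfap2a* passed as higher in null cells (1.51, adjusted p = 0.000571), while *Krt7* and *Cdx2* did not pass. *Krt7* was above background on the 3 wild-type arrays and on no null array (at least 2.33-fold lower, adjusted p = 0.0242), and *Cdx2* had a log2 fold change of -0.35. Of the primitive endoderm genes, *Dab2* had 8.21, 7.57 and 6.51 in null and 6.19, 6.09 and 6.72 in wild-type cells (1.10, adjusted p = 0.228), and *Sox7* was above background on a single null array. The part of such cells in the results was not tested. The Y-linked *Eif2s3y* was detected in the 3 null samples alone (at least 7.46-fold higher, adjusted p = 8.29e-05). The likewise Y-linked *Uty* was above background on all 6 but dim, at 5.92, 6.30 and 6.41 in null and 5.80, 6.00 and 5.89 in wild-type cells. The lowest normalized signals above background ran from 5.52 to 5.87 over the arrays. The loss of *Prdm14* thus cannot be told apart from a difference in the sex chromosomes of the lines.

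At an adjusted p under 0.01 in limma, 4 of the 34 members passed, of which the null cells had 3 higher and 1 lower. The cadherin gene *Cdh4*, the claudin gene *Cldn12* and the connexin gene *Gja1* were higher, and *Cdh3*, which encodes P-cadherin, was lower. Over all named genes 9.52% passed (4.05% higher and 5.47% lower), so that 4 of 34, or 11.8%, is close to the background. Over all 45281 probes, most of them dim, the share was 3.20% (1.40% higher and 1.80% lower). Among genes above background on the 6 arrays, 3 of 20 members were higher and none lower (0 in limma). The share of all such genes that passed was 7.87% (3.69% higher and 4.18% lower). An unadjusted p under 0.05 in limma, in either direction, was found for 12 of these 20 members. Without regard to detection, it was found for 19 of the 34 members and for 3995 of all 9046 named genes. The genotypes did not overlap in 18 of the 34 members, 12 with the null arrays above and 6 with the null arrays below the wild-type arrays, against 44.6% of all named genes (23.2% above and 21.4% below). The median log2 fold change was 0.12 over the members and 0.02 over all named genes. These counts rest on few arrays: with 1 array left out, 0 to 2 members were higher and 0 to 2 lower, and the 4 genes were reduced to *Cdh4* and *Cldn12* without null replicate 1, to *Cdh4* without null replicate 2 or 3, and to none without wild-type replicate 2 or 3. Without wild-type replicate 1, *Cdh3*, *Cdh4* and *Gja1* remained. In these 6 fits 3.34% to 6.75% of all named genes passed. When only probes above background on at least 3 arrays were tested, 4 members were higher and 3 lower. The background was 15.1% (6.73% higher and 8.42% lower), and *Itgae*, *Itgb7* and *Pcdhgb4* were added to the same 4 genes. *Cdh3* and *Itgb7* met this filter through their 3 wild-type arrays alone, so it favours their calls as lower. With the variance allowed to follow the signal (eBayes trend), 6 were higher and 5 lower, while the share of all named genes that passed was 18.1%.

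**Figure D1:**
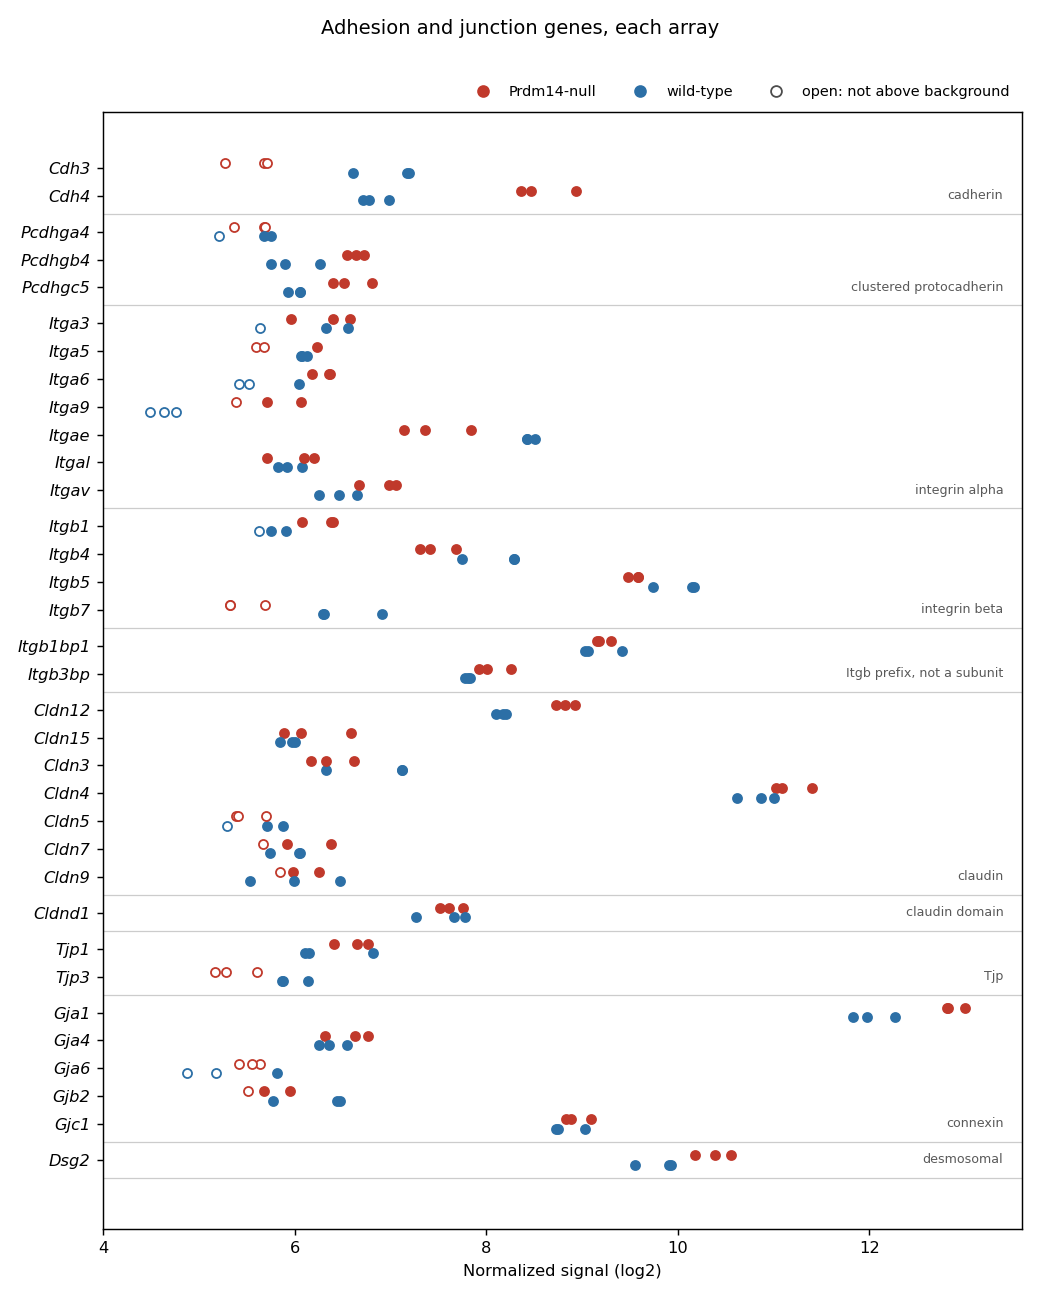
Normalized log2 signal of the brightest probe of each of the 34 genes on each array, *Prdm14*-null in red above wild-type in blue, grouped by family, with open circles for arrays not above background. The 2 genotypes lie apart in *Cdh4* and *Cdh3*, in opposite directions.

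**Figure D2:**
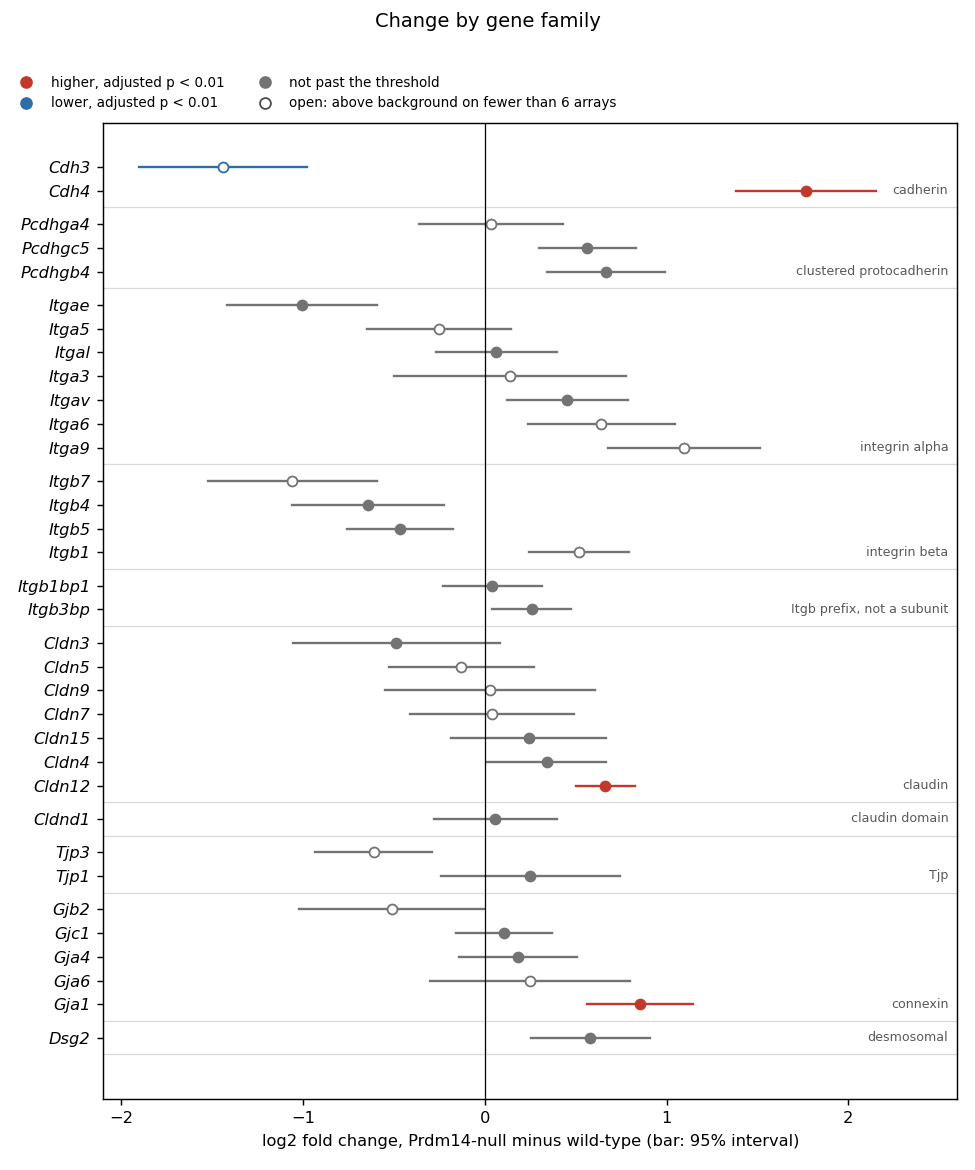
Log2 fold change of the 34 genes, *Prdm14*-null minus wild-type, with 95% intervals from limma, sorted within each family. *Cdh4*, *Cldn12* and *Gja1* (red) passed the threshold as higher and *Cdh3* (blue) as lower, and open circles mark genes above background on fewer than 6 arrays.

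The set held only 2 cadherin genes, *Cdh1* and *Cdh2* being left out, which is too few for a statement on the family. Both passed, in opposite directions, against 9.52% of all named genes. *Cdh3* had a symbol only through its wild-type arrays, so it was bound to look different. *Cdh4* encodes R-cadherin, a classical cadherin best known from retina and other neural tissue. Its normalized log2 signals were 8.47, 8.94 and 8.37 in null cells, against 6.99, 6.78 and 6.71 in wild-type cells, and it was above background on every array. The lowest null array thus lay more than 1 log2 unit above the highest wild-type array. The difference of 1.77 log2 units (standard error 0.16, limma adjusted p = 0.00194), or 3.40-fold, was the largest among the 20 members above background on all 6 arrays. It was 1.10 with the authors' processed values, and its call was lost without wild-type replicate 2 or 3 (adjusted p = 0.0120 and 0.0124, with log2 fold changes of 1.74 and 1.71). *Cdh4* lies at chr2:179442423-179899377 in GRCm38.p6, and *Cdh3* on chromosome 8.

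*Cdh3*, the P-cadherin gene, is expressed in placenta and many epithelia. It had 5.27, 5.67 and 5.71 in null cells, none of them above background, and 6.61, 7.18 and 7.19 in wild-type cells, all above background. The genotypes did not overlap, with wild-type replicate 1 the lowest of its group. As the null level is only bounded, *Cdh3* was at least 2.37-fold lower in null cells, with measured means of 5.55 ± 0.24 in null and 6.99 ± 0.33 in wild-type cells (SD, n = 3 each; adjusted p = 0.00786 from limma). Its second probe, with no null and 2 wild-type arrays above background, was bounded at 1.08-fold or more lower (adjusted p = 0.0188). The call on the brighter probe stayed without wild-type replicate 1 (adjusted p = 0.00462) and was lost without any 1 of the other 5 arrays (adjusted p = 0.0232, 0.0324 and 0.0239 without null replicates 1, 2 and 3, and 0.0334 and 0.0338 without wild-type replicates 2 and 3). It was also lost with an offset of 50 (0.0183) and with median scaling (0.0594).

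Protocadherins of the γ cluster on chromosome 18 are isoforms with variable first exons joined to shared constant exons, and take part in recognition between neurons. Which of these exons each probe reads was not known, so their signals may be shared. *Pcdhgb4* had 6.64, 6.55 and 6.72 in null and 5.75, 6.26 and 5.90 in wild-type cells. *Pcdhgc5* had 6.52, 6.40 and 6.81 in null and 5.93, 6.05 and 6.06 in wild-type cells. In both genes each null array lay above each wild-type array, yet neither passed, at log2 fold changes of 0.67 (adjusted p = 0.0338) and 0.56 (adjusted p = 0.0317). *Pcdhgb4* passed in 4 of 10 other settings, of which 1 is a looser threshold of 0.05 here and in such counts elsewhere (adjusted p from 0.00719 to 0.196). *Pcdhga4* was above background on 2 wild-type arrays alone, with overlapping signals, and no fold could be given.

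None of the 11 integrin subunit genes passed the threshold (0 of 11 in limma, with 8 of 11 at an unadjusted p under 0.05, as were 3995 of the 9046 named genes). Between 0 and 5 passed in the other settings with all 6 arrays, and in the 2 settings with 5 (the eBayes trend without and with robust fitting) 18.1% and 17.9% of all named genes passed. The 8 at an unadjusted p under 0.05 were 4 with null arrays above the wild-type arrays and 4 with null arrays below. Below were *Itgae*, *Itgb7*, *Itgb4* and *Itgb5*, and above were *Itgav*, *Itga6*, *Itga9* and *Itgb1*. Of these 8, only *Itgae*, *Itgav*, *Itgb4* and *Itgb5* were above background on all 6 arrays.

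*Itgae* encodes the αE subunit (CD103), known as the partner of β7 in the integrin that binds E-cadherin on epithelia, and *Itgb7* encodes that β7 subunit. *Itgae* had 7.14, 7.36 and 7.85 in null and 8.43, 8.51 and 8.43 in wild-type cells. The wild-type arrays lay close together and the null arrays were spread, with null replicate 3 nearest to the wild type. The log2 fold change was -1.01 (standard error 0.17, 95% interval -1.42 to -0.59, adjusted p = 0.0188). Its other probe above background on the 6 arrays gave -1.09 (adjusted p = 0.0151), and the third was above background on 2 wild-type arrays alone, so that it gives no fold. *Itgae* passed in 6 of 10 other settings (adjusted p from 3.82e-05 to 0.0677), among them the fit of detected probes alone, and without null replicate 3 (adjusted p = 0.00329, log2 fold change -1.20).

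*Itgb7* had 5.33, 5.33 and 5.69 in null cells, none above background, against 6.91, 6.30 and 6.31 in wild-type cells, all above background. The null level is thus a bound, and the wild-type mean of 6.51 ± 0.35, set against 5.45 ± 0.21 in null cells (SD, n = 3 each), lay at least 1.69-fold above it, with an adjusted p of 0.0234. It passed in 7 of 10 other settings (adjusted p from 0.000304 to 0.0645). Among them was the fit of detected probes alone, whose filter *Itgb7* met only through its wild-type arrays. *Itgae* lies on chromosome 11 and *Itgb7* on chromosome 15, on which the 782 and 363 named genes had median log2 fold changes of -0.14 and -0.19, against 0.04 and 0.03 for the genes of all other chromosomes. The part of these chromosome-wide values in the 2 results was not tested. The other members on chromosome 11, *Itgb4*, *Itga3*, *Gjc1* and *Cldn7*, had log2 fold changes of -0.64, 0.14, 0.10 and 0.04, and *Itga5*, the other member on chromosome 15, had -0.25.

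*Itgb4*, the partner of α6 in hemidesmosomes, had 7.42, 7.68 and 7.30 in null and 7.75, 8.29 and 8.29 in wild-type cells, a log2 fold change of -0.64 (adjusted p = 0.0893). Its second, dimmer probe was above background on no null and 2 wild-type arrays, with a bound of at least 1.24-fold lower (adjusted p = 0.0648). *Itgb5*, which pairs with αv as a vitronectin receptor, had 9.58, 9.58 and 9.48 in null and 9.74, 10.14 and 10.17 in wild-type cells, a log2 fold change of -0.47 (adjusted p = 0.0770). In both genes wild-type replicate 1 lay nearest to the null arrays, and without it *Itgb5* passed at -0.61 (adjusted p = 0.00671).

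*Itgav*, the αv subunit gene of several fibronectin and vitronectin receptors, had 7.06, 6.99 and 6.67 in null and 6.25, 6.65 and 6.47 in wild-type cells. The groups just missed each other, and the log2 fold change of 0.45 (95% interval 0.12 to 0.79) had an adjusted p of 0.126. *Itgb1*, the common β subunit of laminin, collagen and fibronectin receptors, was dim on this platform, at 6.07, 6.40 and 6.38 in null and 5.62, 5.75 and 5.91 in wild-type cells, with 3 null and 2 wild-type arrays above background (0.52, adjusted p = 0.0455; second probe 0.39, adjusted p = 0.171). The mean over both probes passed as higher (0.46, adjusted p = 0.00647). Its laminin-receptor partner *Itga6* was above background on the 3 null arrays and 1 wild-type array (0.64, adjusted p = 0.0808). *Itga9*, which encodes a subunit for tenascin and other matrix proteins, was above background on 2 null arrays and no wild-type array, with a fold of at least 1.05 and means of 5.72 ± 0.34 in null and 4.63 ± 0.14 in wild-type cells (SD, n = 3 each; adjusted p = 0.0146). The fibronectin receptor gene *Itga5*, at -0.25 (95% interval -0.65 to 0.15), the laminin receptor gene *Itga3*, at 0.14 (-0.50 to 0.78), and the leukocyte subunit gene *Itgal*, at 0.06 (-0.27 to 0.40), overlapped between the genotypes.

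A pair of genes begin with Itgb without encoding subunits. *Itgb1bp1* encodes ICAP-1, which binds the tail of β1 integrin, and its probes disagreed. The brighter probe had 9.30, 9.18 and 9.15 in null and 9.42, 9.03 and 9.06 in wild-type cells (0.04, adjusted p = 0.929), while the dimmer had 7.97, 7.73 and 7.80 in null and 8.64, 8.59 and 8.43 in wild-type cells and passed as lower (-0.72, adjusted p = 0.00531). Both were above background on all 6 arrays, and the dimmer one had no overlap between the genotypes. *Itgb3bp*, which encodes a protein first described by its binding to β3 integrin and also known as centromere protein R, had 7.93, 8.26 and 8.01 in null and 7.81, 7.78 and 7.83 in wild-type cells (0.26, adjusted p = 0.184).

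**Figure D3:**
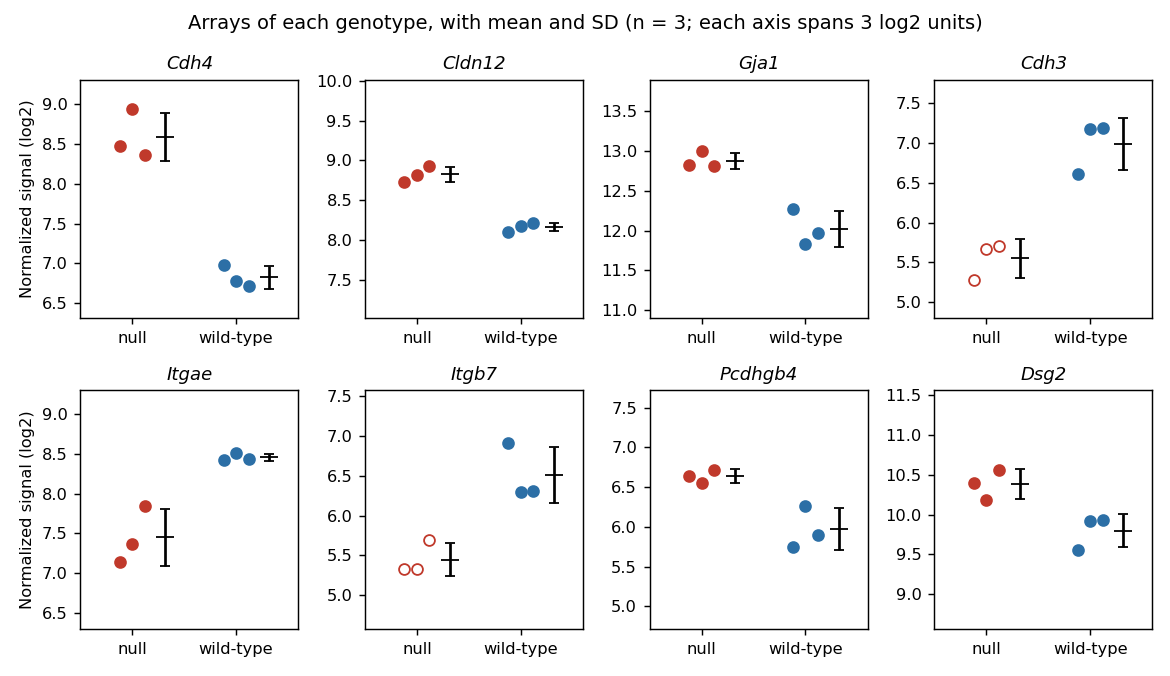
Normalized log2 signal on each array for 8 genes, *Prdm14*-null (red) left of wild-type (blue), with the mean and SD of 3 arrays in black and open circles for arrays not above background. Each vertical axis spans 3 log2 units. The 8 genes are among the 18 members whose genotypes do not overlap, as is the case in 44.6% of all named genes. Of the 8, only *Cdh4*, *Cldn12*, *Gja1* and *Cdh3* passed the threshold.

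Of 7 claudin genes, 1 was higher and 6 did not pass, where 4.05% of all named genes were higher and 9.52% passed in either direction. A single call gives no statement on the family. *Cldn12* encodes a claudin that, unlike most of the family, lacks the C-terminal motif for binding PDZ domains of ZO proteins. It had 8.73, 8.82 and 8.93 in null and 8.11, 8.18 and 8.21 in wild-type cells, 2 tight groups without overlap. The log2 fold change was 0.66 (standard error 0.07, adjusted p = 0.00293 from limma), or 1.58-fold. Without null replicate 1 the adjusted p was 0.00666, and the call was lost without null replicate 2 or 3 (adjusted p = 0.0188 and 0.0103), without wild-type replicate 1, 2 or 3 (0.0110, 0.0153 and 0.0143) and with median scaling of the arrays (0.0889), while the log2 fold changes of these fits ran from 0.61 to 0.75. *Cldn12* lies at chr5:5505015-5514976.

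*Cldn4*, a claudin of simple epithelia, had 11.40, 11.03 and 11.09 in null and 10.62, 10.87 and 11.01 in wild-type cells. The genotypes were adjacent without overlap, and the log2 fold change was 0.34 (95% interval 0.01 to 0.67, adjusted p = 0.245). *Cldn3*, also on chromosome 5, had 6.62, 6.33 and 6.17 in null and 6.33, 7.12 and 7.12 in wild-type cells (-0.49, adjusted p = 0.359), so wild-type replicate 1 stood among the null arrays. *Cldn15*, *Cldn7* and *Cldn9* had log2 fold changes of 0.24, 0.04 and 0.03 with overlapping genotypes. The endothelial claudin gene *Cldn5* was above background on no null and 2 wild-type arrays, with overlapping signals, and no fold could be given. *Cldnd1*, which carries a claudin domain, was at 0.06 (95% interval -0.28 to 0.39).

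The scaffold protein ZO-1 links claudins to actin. Its gene *Tjp1* had 6.76, 6.65 and 6.41 in null and 6.10, 6.82 and 6.15 in wild-type cells, with overlap (0.25, adjusted p = 0.662). *Tjp3*, the gene of the related ZO-3, was above background on the 3 wild-type arrays and on no null array, at 5.61, 5.17 and 5.28 in null and 5.87, 6.14 and 5.88 in wild-type cells. It was bounded at no less than 1.16-fold lower in null cells on its brighter probe (adjusted p = 0.0444) and at least 1.22-fold lower on the dimmer one, which did pass (adjusted p = 0.00232), with the same arrays above background. Both probes had a symbol only through the wild-type arrays, so *Tjp3* was bound to look different.

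Among 5 connexin genes, *Gja1* was higher and 4 did not pass, against 4.05% of all named genes higher and 9.52% passing in either direction. This single call is likewise no statement on the family. *Gja1* encodes connexin 43, the connexin known best from gap junctions of ES cells and the early embryo. It had 12.82, 13.00 and 12.82 in null and 12.27, 11.83 and 11.97 in wild-type cells, above background throughout. The null arrays lay close together above the wild-type arrays, and the difference of 0.86 log2 units (standard error 0.12, limma adjusted p = 0.00965) equals 1.81-fold. For this bright probe the value was 0.87 with the authors' processed values, and the call stood close to the threshold. It was lost with an offset of 50 (adjusted p = 0.0176) and without any 1 array other than wild-type replicate 1 (adjusted p = 0.0309, 0.0444 and 0.0316 without null replicates 1, 2 and 3, and 0.0277 and 0.0433 without wild-type replicates 2 and 3), at log2 fold changes from 0.76 to 0.98 over the 6 fits. *Gja1* lies at chr10:56377300-56390419.

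*Gjc1*, the connexin 45 gene, had 8.89, 9.10 and 8.83 in null and 8.73, 9.03 and 8.75 in wild-type cells, which overlapped (0.10, 95% interval -0.16 to 0.37). *Gja4* (connexin 37) differed by 0.18 on the log2 scale, with overlap, and the X-linked *Gja6* was above background on 1 wild-type array only, which gives no fold. *Gjb2*, which encodes connexin 26, had -0.51 (adjusted p = 0.260), with 2 null and 3 wild-type arrays above background.

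The 300 bases around the annotated start, 250 before and 50 after, are shown for the higher genes *Gja1* and *Cldn12* and for *Itgb7*. DNA methylation, which falls on CpG dinucleotides, was another subject of the study. RefSeq sequences of GRCm38.p6 were at hand for 22 of the 34 members. Capitals mark each CpG, 5′ to 3′ on the strand of the gene. The windows are chr10:56377050-56377349 (plus strand) for *Gja1*, chr5:5514927-5515226 (minus strand, 1 of 3 annotated starts) for *Cldn12* and chr15:102231886-102232185 (minus strand) for *Itgb7*. The annotated *Itgb7* gene extends further 5′, to 102233405, so its window lies inside the gene.
Gja1: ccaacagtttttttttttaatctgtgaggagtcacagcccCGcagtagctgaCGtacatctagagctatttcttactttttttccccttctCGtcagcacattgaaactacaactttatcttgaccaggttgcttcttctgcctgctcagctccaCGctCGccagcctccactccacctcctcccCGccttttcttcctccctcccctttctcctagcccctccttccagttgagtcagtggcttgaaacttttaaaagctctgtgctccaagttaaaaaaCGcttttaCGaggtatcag
Cldn12: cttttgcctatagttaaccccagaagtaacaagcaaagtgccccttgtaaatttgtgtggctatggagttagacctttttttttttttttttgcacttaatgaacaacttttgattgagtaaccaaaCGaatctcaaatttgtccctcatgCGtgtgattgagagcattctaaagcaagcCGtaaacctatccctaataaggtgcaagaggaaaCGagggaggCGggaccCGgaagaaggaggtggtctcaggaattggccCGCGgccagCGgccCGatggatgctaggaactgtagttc
Itgb7: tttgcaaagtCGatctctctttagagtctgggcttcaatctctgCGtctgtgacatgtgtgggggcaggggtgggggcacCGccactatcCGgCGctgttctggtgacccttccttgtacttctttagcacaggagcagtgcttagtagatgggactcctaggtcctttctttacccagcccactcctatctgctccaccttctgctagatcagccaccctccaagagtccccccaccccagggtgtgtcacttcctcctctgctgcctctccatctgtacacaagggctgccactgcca
The windows hold 8, 10 and 5 CpGs, against a median of 7 over 32851 such windows, with quartiles at 3 and 20, and a median of 12 over the 27 windows of the members. The windows at the other 2 starts of *Cldn12*, not shown, hold 23 and 26. The *Gja1* window holds TGAGTCA, 1 of the 2 spellings TGACTCA and TGAGTCA of the AP-1 motif (searched on both strands), beginning 19 bases before the start. This motif is in 5.2% of all windows and in 4 of the 27 member windows, or 14.8%, and neither of the other windows shown holds it. The E-box letters CAGGTG or CACCTG, to which Snail and Zeb factors bind, are in none of the 3 windows, in 9 of the 27 member windows and in 20.2% of all windows. A match describes letters only.

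The 1 desmosomal gene with a named probe, *Dsg2*, encodes desmoglein 2, the desmoglein of simple epithelia and of pluripotent cells. On the brightest of its 4 probes it had 10.39, 10.18 and 10.56 in null and 9.56, 9.91 and 9.93 in wild-type cells. The genotypes did not overlap, and the log2 fold change of 0.58 (95% interval 0.25 to 0.91) had an adjusted p of 0.0561. A dimmer probe passed as higher (0.65, adjusted p = 0.00468), another had 0.48 (adjusted p = 0.0211), and the dimmest, above background on 1 array of each genotype, -0.07. The mean over its probes passed as higher (0.41, adjusted p = 0.00440), and over the 10 other settings the adjusted p ran from 0.000972 to 0.264.

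**Figure D4:**
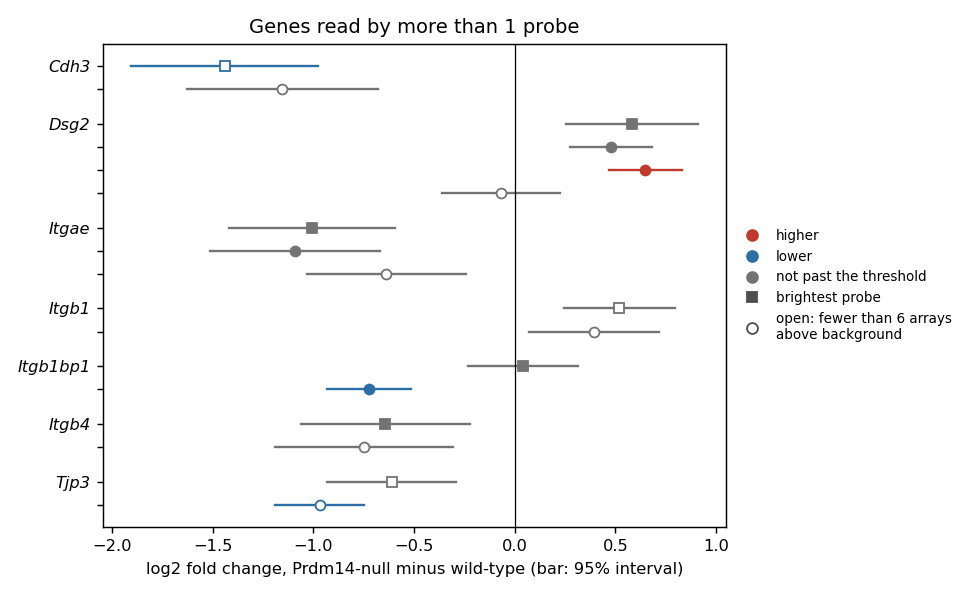
Log2 fold change, *Prdm14*-null minus wild-type, of every probe of the 7 genes read by more than 1 probe, with 95% intervals, the brightest probe as a square. The fitted values of the probes of *Cdh3*, *Itgae*, *Itgb1*, *Itgb4* and *Tjp3* lie on 1 side of 0, while those of *Itgb1bp1* and *Dsg2* differ.

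Proteins that bind the members were followed through 2 further lists, of junction partners and of integrin adhesion partners. Of the 49 symbols of junction partners, which include older names, 25 had a named probe, and 1 was higher, 2 were lower and 22 did not pass (median log2 fold change -0.08), against 9.52% of all named genes called and a median of 0.02. *Jam2*, which encodes a junctional adhesion molecule of tight junctions, had 7.21, 7.16 and 6.84 in null and 9.25, 9.22 and 9.37 in wild-type cells (-2.21, standard error 0.11, adjusted p = 0.000238). *Cgnl1*, the gene of paracingulin, a cytoplasmic protein of tight and adherens junctions, had 8.62, 8.71 and 8.72 in null and 6.59, 6.92 and 6.19 in wild-type cells (2.12, standard error 0.17, adjusted p = 0.00140). In both genes the genotypes lay far apart, and every array was above background. *Pkp4*, the gene of plakophilin 4, was lower by a small step, at 10.71, 10.83 and 10.85 in null and 11.42, 11.37 and 11.23 in wild-type cells (-0.54, adjusted p = 0.00779). The catenin genes *Ctnna1*, *Ctnnb1* and *Ctnnd1*, whose proteins tie cadherins to actin, did not pass, at -0.08 (95% interval -0.23 to 0.07), -0.29 (-0.56 to -0.02) and -0.07 (-0.23 to 0.10), and the signs of *Ctnna1* and *Ctnnd1* turned with median scaling.

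Of 32 symbols of integrin adhesion partners, 18 had a named probe, and none was higher (0 in limma, with 7 of the 18 at an unadjusted p under 0.05 in either direction, as were 3995 of the 9046 named genes), 2 were lower and 16 did not pass (median 0.01). The share of all named genes called lower was 5.47%. *Icam1*, an adhesion receptor that leukocyte integrins bind, had 7.24, 7.37 and 7.63 in null and 9.60, 9.56 and 9.57 in wild-type cells (-2.16, standard error 0.10, adjusted p = 0.000182). *Fblim1*, the gene of migfilin, a protein of cell-matrix and cell-cell contacts that binds filamin, had 8.62, 8.75 and 9.33 in null and 10.43, 10.48 and 10.26 in wild-type cells (-1.49, standard error 0.18, adjusted p = 0.00605). *Jam2* and *Icam1* passed whichever array was left out. *Cgnl1* lost its call without null replicate 2 (adjusted p = 0.0109), *Fblim1* without any 1 array other than null replicate 3 (0.0176 to 0.0320), and *Pkp4* without any 1 of the 6 (0.0147 to 0.0348).

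**Figure D5:**
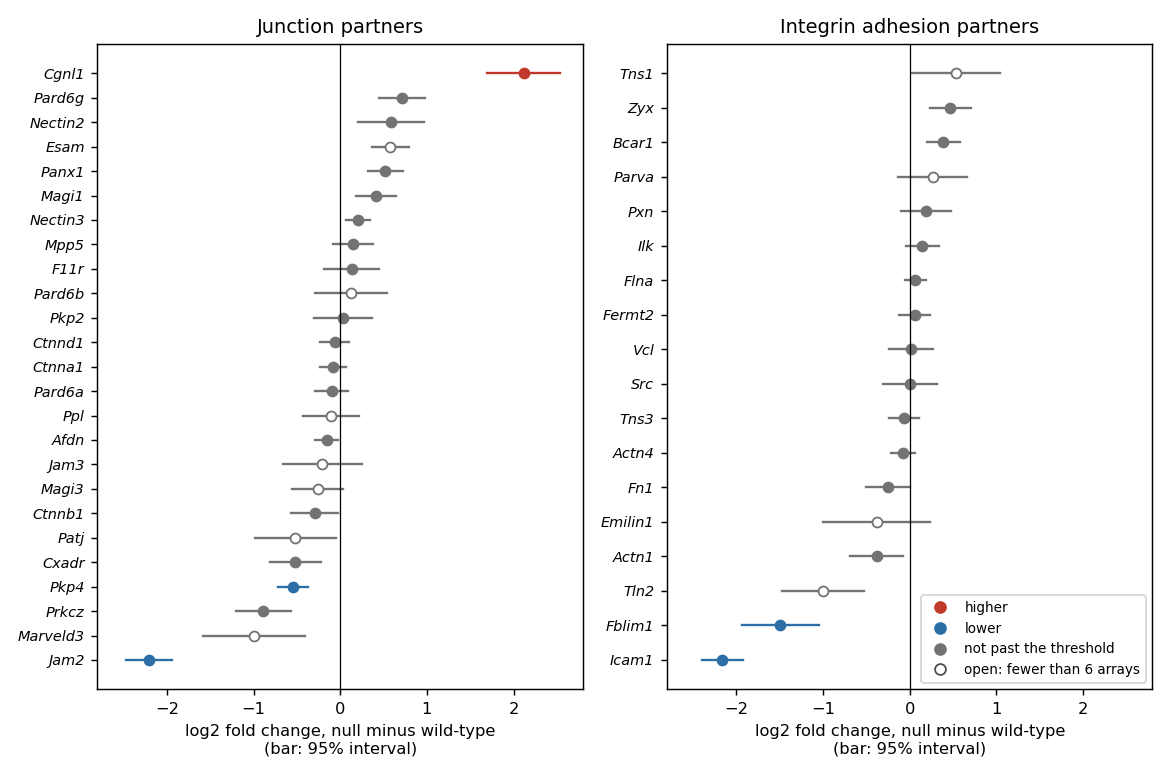
Log2 fold change, *Prdm14*-null minus wild-type, with 95% intervals from limma, of the 25 junction partners and the 18 integrin adhesion partners with a named probe. *Cgnl1* (red) passed as higher, and *Jam2*, *Pkp4*, *Icam1* and *Fblim1* (blue) as lower.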

How the data were processed

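Total RNA of 3 *Prdm14*-null and 3 wild-type samples was measured on Illumina Mouse WG-6 BeadChips. The authors deposited non-normalized signal intensities of 45281 probes per array, each with a detection p-value, and processed values close to log2 for 15961 probes, with an array median of 8.18, which here were an alternative. The submitters' processing notes name lumi. The deposited detection p-values were used at 0.01.

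Signals were background-corrected by normexp, from the probe signals and detection p-values. They were quantile normalized with an offset of 16 and put on the log2 scale with neqc of limma 3.58.1 in R 4.3.3. The moderated test of limma (lmFit, eBayes) covered all probes, with Benjamini-Hochberg adjustment over them and a threshold of 0.01. Precision is limited by the small number of arrays. A gene with every array of 1 genotype at background is given as a lower bound, set against the lowest signal above background of each array, and with no fold where that bound is under 1. Probes were named from the platform annotation. Of the 15961 probes above background on at least 1 array, 13842 had 1 symbol, 6 several and 2113 none. All 34 members matched RefSeq (GRCm38.p6), which gave the coordinates.

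Named in full were members past the threshold, members above background on the 3 arrays of 1 genotype and none of the other, the brightest 2 of each family above background on all 6 arrays, and members whose probes disagree. Other members and the partners that passed were chosen after their values were seen. The members and lists were chosen with earlier results of these data known. Alternatives covered background, offset, scaling, filter, variance model, block, threshold, the mean of probes and leaving out 1 array.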

Additional observations from a re-analysis of the deposited data

How the results depend on the processing

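Members higher and lower numbered 3 and 1, of 1450 probes over the array. Without background correction these were 6 and 3 of 2759, with an offset of 50 they were 2 and 0, and with median scaling 398 probes passed. With the authors' processed values they were 5 and 4 of 2430, with detected probes alone 3 were lower, with eBayes trend they were 6 and 5 of 2593, with a robust trend 5 and 5 of 2613, at a threshold of 0.05 they were 7 and 4 of 3431, and with the mean over probes 5 and 2. Leaving out 1 array gave 0 to 2 higher, 0 to 2 lower and 464 to 997 probes. The share of all named genes that passed was 9.52% in the main fit. It was 19.1% without background correction, 7.34% with an offset of 50 and 2.82% with median scaling. With the authors' values (15961 probes tested) it was 17.9%, and with detected probes alone (14436 tested) 15.1%. The trend and robust trend gave 18.1% and 17.9%, the threshold of 0.05 gave 21.3% and the mean over probes 9.83%. With 1 array left out it ran from 3.34% to 6.75%. The causes of these shifts were not tested.

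With the replicate number as a block, 0 members were higher, 1 (*Cdh3*) was lower and 368 probes passed, with 2.52% of all named genes. The numbers gave no sign of pairing the samples. Same-numbered arrays deviated from their group means with r = -0.03, -0.06 and -0.12, and no array correlated best with its own number.

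Of 780 single-gene values in other settings, 664 kept their direction and side of the threshold, 58 passed it anew, 41 lost it and 17 changed sign, in 9 genes. *Ctnna1* and *Ctnnd1* were at 0.00138 and 0.0207 with median scaling, and *Itgb1bp1* at -0.34 as a mean over probes. With 1 array left out, the fitted value of *Itgb1bp1* ran from -0.0278 to 0.16, *Cldn7* from -0.16 to 0.20, *Cldnd1* from -0.0930 to 0.16, *Itgal* from -0.0370 to 0.21, *Cldn9* from -0.21 to 0.26, *Pcdhga4* from -0.14 to 0.14 and *Itga3* from -0.13 to 0.33, so these genes have no settled direction. Dim probes near background limit the set, since 14 of 34 members were not above background on every array.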
